A study of Mus musculus with 4 samples.

Results

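At postnatal day 12, 86 of 21655 genes tested were below 0.5 FPKM in Cd73-negative (Cd73N) cells of wild-type mouse retina and at 1.5 FPKM or more in Cd73N cells of the library labelled Ezh2-cKO. FPKM scales reads to exon length and to the size of the library, so it is a level per length. Genes were kept if their locus was on a numbered chromosome, if their status was OK in all 4 libraries, and if the level in the Cd73-positive (Cd73P) library labelled Ezh2-cKO was below that in the Cd73N library labelled Ezh2-cKO. Small RNAs and Hox genes were left out by name. The 86 genes were therefore chosen on 3 of the 4 libraries, and their difference between the Cd73N libraries is given as a description with no test. They were 0.397% of the genes tested and lay on all 19 numbered chromosomes.

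The 4 libraries held poly(A) RNA of sorted retinal cells from mice of the strain slc:ICR, with 1 library for each fraction and genotype. Cd73 is a surface enzyme of rods encoded by Nt5e, so Cd73P cells are mostly rods and Cd73N cells are a mixture of Müller glia, bipolar, amacrine and ganglion cells, cones and non-neural cells. The Ezh2-cKO mice carried floxed Ezh2 with a Cre driven by DKK3, which acts in retinal progenitors from an early embryonic stage, and the controls labelled wildtype were normal littermates according to the study's methods. The number of retinas behind each P12 library was not given in the sources used here. With 1 library per group, none of the differences below has a replicate check. Bounds given in brackets are those deposited with each level and cover counting error within a library only.

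Ezh2 encodes the catalytic subunit of Polycomb repressive complex PRC2, which places a repressive methyl mark on histone H3. The complex is best known for keeping developmental regulators silent in cells where they do not belong, and CpG-rich promoters are its typical targets in mammals. The Ink4 locus, which holds Cdkn2a and Cdkn2b, is a classical target in dividing cells. In the retina, Müller glia are the principal glial cells and the last to arise with rods and bipolar cells.

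The libraries were first checked against their labels. Ezh2 was at 14.1 FPKM in wild-type Cd73N and at 15.9 FPKM in Cd73N labelled Ezh2-cKO, and at 5.38 and 3.45 FPKM in the matching Cd73P libraries, so its level in Cd73N went against the label. Loss of a floxed exon cannot be seen in a level taken over the whole gene. Nt5e was at 0.844 and 0.609 FPKM in the Cd73N pair and 125 and 123 FPKM in the Cd73P pair. The genotypes were also separated by sex-linked transcripts, with Xist at 52.2 and 240 FPKM in the Cd73N pair and 47.0 and 95.6 FPKM in the Cd73P pair, and 4 Y-linked genes together at 26.8 and 0.716 FPKM in Cd73N and at 27.9 and 0.496 FPKM in Cd73P, wild type first. Sex and genotype therefore cannot be told apart here.

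Cell-type markers moved with genotype in the same libraries. All 12 Müller glia markers were at least 1.5-fold higher in Cd73N labelled Ezh2-cKO, where their summed FPKM was 5769 against 1123 in wild type. In Cd73P, 8 of the 12 were higher, with sums of 243 and 117 FPKM. Of 12 bipolar markers, 8 were lower in Cd73N labelled Ezh2-cKO and 9 were lower in Cd73P. Among 19 markers of microglia and macrophages, 6 were higher in Cd73N, with sums of 180 FPKM in wild type and 271 FPKM in the library labelled Ezh2-cKO. Over all genes tested, 7.19% were higher and 1.7% were lower in Cd73N, and 2.27% were higher and 2.38% lower in Cd73P. Vascular markers were higher for 2 and lower for 1 of 20 genes, ganglion cell markers for 3 and 1 of 11, lens markers for 1 and 2 of 21 and blood markers for 2 and 1 of 24. Higher calls without lower ones were found for 3 of 9 amacrine, 3 of 18 mesenchymal, 1 of 15 pigment cell and 2 of 13 astrocyte or oligodendrocyte markers. Of 13 rod markers, 5 were lower and 0 were higher in Cd73N, with sums of 2117 and 2190 FPKM, and in Cd73P 2 were higher and 0 lower, with sums of 21727 and 29917 FPKM, wild type first. In wild-type Cd73N, no marker of glia, neurons, microglia or vessels was listed at 0, whereas 5 lens, 3 blood and 3 mesenchymal markers were. None of the 86 genes is on any of these marker lists. For Müller glia, bipolar and rod markers the rule fixed this, because 0 of them were below 0.5 FPKM in wild-type Cd73N. In such bulk samples, fewer cells of a type and less RNA per cell cannot be told apart, and the part of these marker differences in the levels below was not tested.

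**Figure D1:**
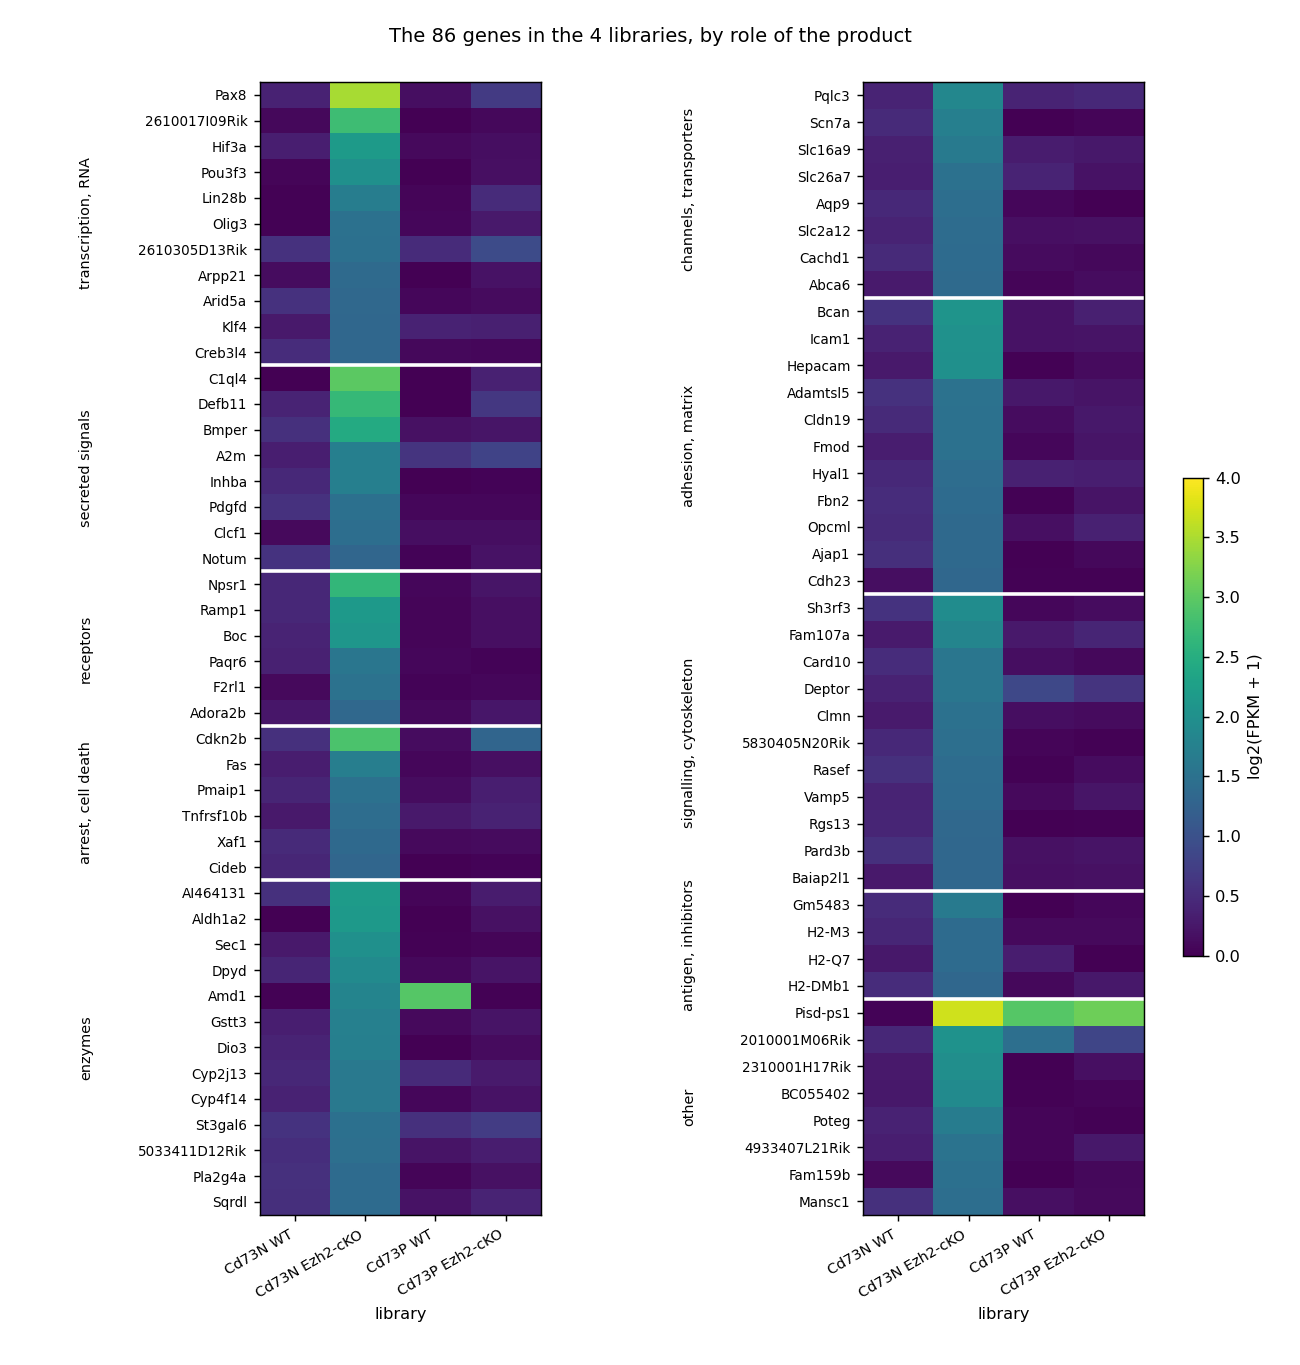
Levels of the 86 genes (rows, grouped by role of the product) in the 4 libraries (columns), as log2(FPKM + 1) from dark (0) to yellow (4). The Cd73N Ezh2-cKO column is the brightest for 85 of the 86 genes, Amd1 being the exception, and Pisd-ps1 and Amd1 stand out in Cd73P.

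The summed level of the 86 genes was 26.1 FPKM in wild-type Cd73N and 219 FPKM in Cd73N labelled Ezh2-cKO, and 23.9 and 24.4 FPKM in the corresponding Cd73P libraries. Most of them stayed low: 48 of 86 were below 2 FPKM in Cd73N labelled Ezh2-cKO, 19 reached 3 FPKM and 7 reached 5 FPKM, with a median of 1.83 and a maximum of 12.1 FPKM. Their median in wild-type Cd73N was 0.318 FPKM. As log2 of the ratio of (FPKM + 1), which understates differences of low genes, the Cd73N values ran from 0.74 for Notum to 3.67 for Pisd-ps1 with a median of 1.20. All 86 were past 1.5-fold in Cd73N, as the rule fixes, against 7.19% of all genes tested. Their Cd73N bounds did not overlap in any of the 86. These bounds belong to the values that chose the genes, and no share over all genes was taken for them. Aldh1a2 and C1ql4 were listed at 0 in wild-type Cd73N. C1ql4, 2610017I09Rik, Defb11 and Gm5483 had an FPKM above their own upper bound in Cd73N labelled Ezh2-cKO, so their bounds miss the value.

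The genes nearest to each limit were as follows. Notum and St3gal6 were just inside the wild-type limit at 0.499 and 0.497 FPKM, and Kctd14 and Lama5 were just outside it at 0.504 and 0.506 FPKM, though higher in Cd73N labelled Ezh2-cKO (3.42 and 2.40 FPKM, against 1.501 for Notum and 1.79 for St3gal6). Notum and Cideb were just inside the lower limit for Cd73N labelled Ezh2-cKO at 1.501 and 1.502 FPKM, and Olfml2b and Eya2 were just outside it at 1.498 and 1.495 FPKM. For the limit set by Cd73P, 2610305D13Rik and Pisd-ps1 were the closest inside, with a Cd73P level that was 49.9% and 63.6% of the Cd73N level among libraries labelled Ezh2-cKO. Psrc1 (1.81 FPKM in Cd73N, 1.85 in Cd73P, both labelled Ezh2-cKO) and Plag1 (2.01 and 3.13 FPKM) were outside it.

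**Figure D2:**
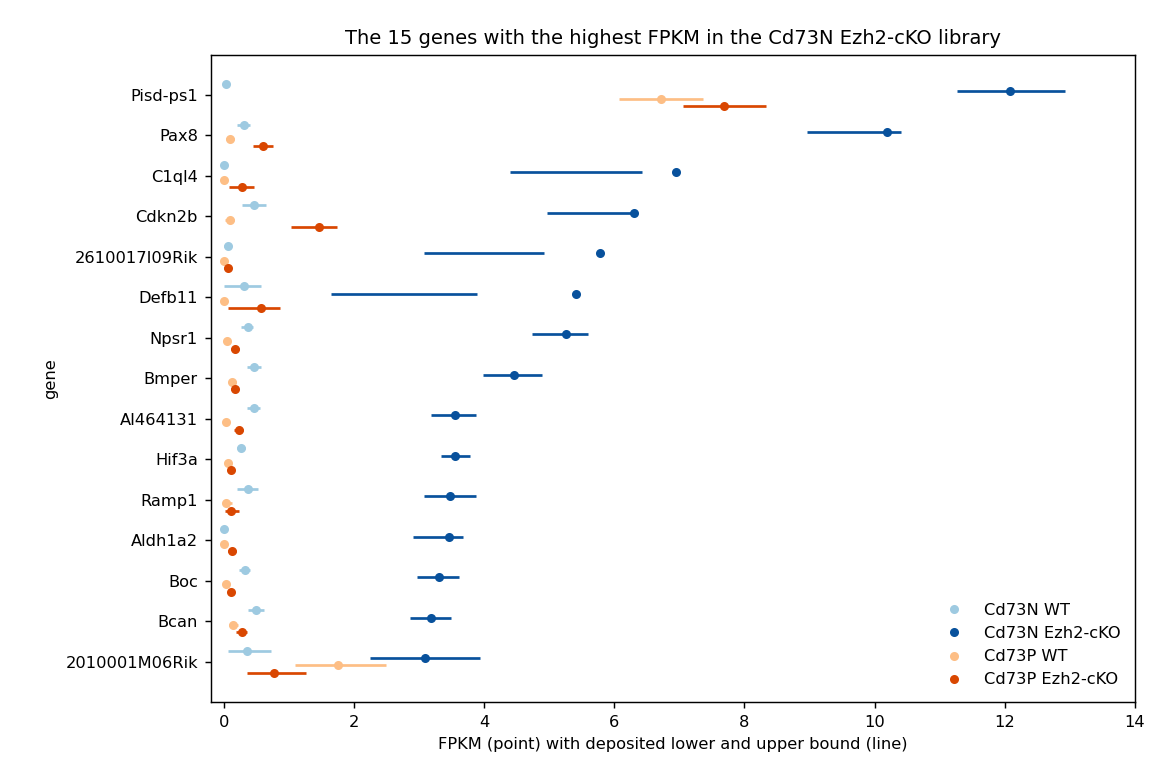
FPKM (points) with the deposited bounds (lines) of the 15 genes highest in Cd73N Ezh2-cKO, in each of the 4 libraries. Pax8 reaches 10.2 FPKM in Cd73N Ezh2-cKO while the other libraries stay at or below 0.607 FPKM, and Pisd-ps1 is above 6 FPKM in every library except Cd73N WT.

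Regulators of transcription or RNA made up a group of 11 genes, in which the non-coding neighbour of Pou3f3, 2610017I09Rik, was also placed. Pax8, a paired-box factor of thyroid and kidney development (chromosome 2, 24276080 to 24331086, build mm9 as for all loci here), was at 0.307 FPKM (0.205 to 0.410) in wild-type Cd73N, 10.2 (8.96 to 10.4) in Cd73N labelled Ezh2-cKO, 0.103 in wild-type Cd73P and 0.607 in Cd73P labelled Ezh2-cKO. It was high in 1 of 4 libraries, with a log2 difference of 3.10 in Cd73N and 0.54 in Cd73P. Pou3f3, a POU homeodomain factor of the forebrain and kidney (chromosome 1, 42753991 to 42757054), was at 0.0384, 3.003, 0.00761 and 0.125 FPKM, with the libraries in this same order here and below. Hif3a, a member of the hypoxia-inducible factor family (chromosome 7, 17616342 to 17647776), was at 0.260, 3.55, 0.0681 and 0.107 FPKM. These were low in Cd73P, where Pou3f3 and Hif3a stayed below 0.13 FPKM in both genotypes.

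Lin28b and Olig3 were among the lowest of the 86 genes in wild-type Cd73N. Lin28b, an RNA-binding protein that blocks maturation of the let-7 microRNAs and is known from early progenitors (chromosome 10, 45096425 to 45190007), was at 0.0125 FPKM in wild-type Cd73N, 2.24 in Cd73N labelled Ezh2-cKO, 0.034 in wild-type Cd73P and 0.413 in Cd73P labelled Ezh2-cKO. Olig3, a bHLH factor of the dorsal hindbrain and spinal cord (chromosome 10, 19076345 to 19078410), was at 0.0142, 1.83, 0.0493 and 0.205 FPKM. For both genes the Cd73P bounds of the genotypes did not overlap. The other regulators, among them Klf4 (0.209 and 1.53 FPKM in Cd73N) and the RNA-binding protein gene Arid5a (0.489 and 1.56), lay between 1.52 and 1.79 FPKM in Cd73N labelled Ezh2-cKO except for 2610017I09Rik.

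Secreted signals and their modulators made up 8 genes. C1ql4, a secreted C1q-like protein (chromosome 15, 98915185 to 98918159), was listed at 0 in both wild-type libraries, at 6.95 FPKM in Cd73N labelled Ezh2-cKO and at 0.286 (0.0881 to 0.470) in Cd73P labelled Ezh2-cKO. Defb11, a beta-defensin (chromosome 8, 23015846 to 23016904), was at 0.313 FPKM in wild-type Cd73N, 5.42 in Cd73N labelled Ezh2-cKO, 0 in wild-type Cd73P and 0.573 in Cd73P labelled Ezh2-cKO. Both genes are short, and both are above their upper bound in Cd73N labelled Ezh2-cKO. Other beta-defensin genes were unlike each other. Defb10 was at 0, 1.34, 0 and 0.266 FPKM, Defb9 at 0.705, 0.147, 0 and 0.386 FPKM and Defb15 at 0, 0.555, 0 and 0 FPKM. Whether reads were shared between Defb11 and these relatives was not tested. Bmper, which binds and modulates bone morphogenetic proteins (chromosome 9, 23027520 to 23289646), was at 0.463, 4.45, 0.133 and 0.170 FPKM, and its Cd73P bounds overlapped.

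Ligands proper were lower. Inhba, the subunit of activin A, was at 0.374 and 2.33 FPKM in Cd73N, listed at 0 in wild-type Cd73P and at 0.0317 FPKM in Cd73P labelled Ezh2-cKO. Clcf1, a cytokine of the interleukin 6 family, was at 0.0701, 1.73, 0.106 and 0.103 FPKM. Pdgfd, a platelet-derived growth factor, was at 0.488 and 1.79 FPKM in Cd73N, and Notum, an enzyme that inactivates Wnt proteins, at 0.499 and 1.501 FPKM. A2m, the protease inhibitor alpha-2-macroglobulin, was unlike the other 7 in that it was at 0.517 FPKM in wild-type Cd73P and at 0.749 FPKM in Cd73P labelled Ezh2-cKO, beside 0.261 and 2.33 FPKM in Cd73N.

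Receptors and receptor partners numbered 6, and none exceeded 0.18 FPKM in Cd73P. Npsr1, the receptor of neuropeptide S (chromosome 9, 23902462 to 24120842), was at 0.367 FPKM (0.273 to 0.456) in wild-type Cd73N, 5.27 (4.74 to 5.60) in Cd73N labelled Ezh2-cKO, 0.0546 in wild-type Cd73P and 0.176 in Cd73P labelled Ezh2-cKO. Transcripts of its ligand gene Nps were listed at 0 in wild-type Cd73N and at 0.0549 FPKM in Cd73N labelled Ezh2-cKO. Ramp1, a partner of the receptor for calcitonin gene-related peptide, was at 0.368, 3.48, 0.0371 and 0.117 FPKM. Boc, a co-receptor of hedgehog ligands, was at 0.322, 3.31, 0.0361 and 0.120 FPKM. Npsr1 and Boc, but not Ramp1, had Cd73P bounds that did not overlap. The adenosine receptor gene Adora2b, the protease-activated receptor gene F2rl1 and Paqr6 were at 1.56, 1.83 and 1.98 FPKM in Cd73N labelled Ezh2-cKO.

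Genes of cell-cycle arrest and cell death numbered 6. Cdkn2b, an inhibitor of cyclin D-dependent kinases (chromosome 4, 88952198 to 88956941), was at 0.471 FPKM (0.279 to 0.651) in wild-type Cd73N, 6.31 (4.96 to 6.31) in Cd73N labelled Ezh2-cKO, 0.0915 (0.0156 to 0.156) in wild-type Cd73P and 1.47 (1.04 to 1.74) in Cd73P labelled Ezh2-cKO. It was higher in the library labelled Ezh2-cKO of both fractions, with a log2 difference of 1.18 in Cd73P that was the largest positive one among the 86 genes there. Fas, a death receptor, was at 0.252, 2.27, 0.0509 and 0.119 FPKM. Pmaip1, which encodes the pro-apoptotic protein Noxa, was at 0.335, 1.80, 0.0982 and 0.266 FPKM. Tnfrsf10b, another death receptor, was at 0.207, 1.68, 0.207 and 0.303 FPKM, and Xaf1 and Cideb were at 1.59 and 1.502 FPKM in Cd73N labelled Ezh2-cKO. Only Cdkn2b and Pmaip1 of these 6 had Cd73P bounds that did not overlap.

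Enzymes formed the largest group with 13 genes. Aldh1a2, which makes retinoic acid from retinal and patterns the early eye and trunk (chromosome 9, 71063596 to 71144050), was listed at 0 in wild-type Cd73N and was at 3.47 FPKM (2.90 to 3.68) in Cd73N labelled Ezh2-cKO, 0.0106 in wild-type Cd73P and 0.133 in Cd73P labelled Ezh2-cKO. Of the other enzymes of that step, Aldh1a1 was already at 24.5 FPKM in wild-type Cd73N against 105 FPKM in Cd73N labelled Ezh2-cKO, and Aldh1a3 was at 0.520 and 0.960 FPKM. Dio3, which inactivates thyroid hormone (chromosome 12, 111517440 to 111519307), stood at 0.311 and 2.30 FPKM in Cd73N, listed at 0 in wild-type Cd73P and at 0.0885 FPKM in Cd73P labelled Ezh2-cKO. Dio2, which activates thyroid hormone and did not qualify, was at 1.96 and 13.5 FPKM in Cd73N. These relatives were looked up after the values of the members were known.

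AI464131 (Myorg in RefSeq, a glycosidase) was at 0.465, 3.56, 0.037 and 0.232 FPKM. Dpyd, the first enzyme of pyrimidine breakdown, was at 0.337, 2.76, 0.0669 and 0.154 FPKM. Both had Cd73P bounds that did not overlap. Amd1 is described with the overlapping loci. The remaining enzymes, among them Gstt3, Cyp2j13, Cyp4f14, Pla2g4a and St3gal6, were between 1.64 and 3.01 FPKM in Cd73N labelled Ezh2-cKO. Cyp2j13 was lower in Cd73P labelled Ezh2-cKO, at 0.217 FPKM against 0.387 FPKM with bounds that did not overlap.

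Adhesion and matrix genes numbered 11, with a median of 1.80 FPKM in Cd73N labelled Ezh2-cKO. Bcan, a proteoglycan of the neural matrix (chromosome 3, 87791453 to 87804278), was at 0.496, 3.18, 0.149 and 0.278 FPKM, Icam1, a leukocyte adhesion receptor, at 0.305, 3.07, 0.140 and 0.153 FPKM, and Hepacam, an adhesion molecule of glia, at 0.210, 3.03, 0.0151 and 0.0802 FPKM. The other 8, with Fmod, Fbn2, Cldn19 and Cdh23 among them, were at 1.51 to 1.83 FPKM. Channels and transporters (8 genes, 1.60 to 2.59 FPKM in Cd73N labelled Ezh2-cKO) included Scn7a, an atypical sodium channel of glia, at 0.385, 2.30, 0.00306 and 0.0413 FPKM, and the water and solute channel gene Aqp9 at 0.380, 1.73, 0.0446 and 0.00862 FPKM.

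Intracellular signalling, cytoskeletal and trafficking genes numbered 11. Deptor, an inhibitor of mTOR kinase, was at 0.298 and 1.97 FPKM in Cd73N and at 0.814 (0.648 to 0.981) and 0.523 (0.395 to 0.651) FPKM in Cd73P. It was thus higher in wild-type Cd73P than in wild-type Cd73N, and its Cd73P bounds overlapped. Sh3rf3 and Fam107a were at 2.83 and 2.53 FPKM in Cd73N labelled Ezh2-cKO, and the other 8 were at 1.52 to 1.98 FPKM. The 4 genes of antigen presentation and protease inhibition were H2-Q7, H2-M3 and H2-DMb1 of the major histocompatibility complex and Gm5483, a stefin gene, at 1.53 to 2.09 FPKM. All 4 have close relatives in their families, so the levels are uncertain where reads were shared among copies.

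The level in the Cd73P wild-type library was the only one that the choice of genes did not use directly. There, 5 of the 86 genes were at 0.5 FPKM or more, namely Pisd-ps1, Amd1, 2010001M06Rik, Deptor and A2m, against 3.71% of all genes below 0.5 FPKM in wild-type Cd73N and 20.6% of the 791 other genes that were at 0.25 to 0.5 FPKM there. The other 81 genes were below 0.5 FPKM in both wild-type fractions, and 10 were listed at 0 in wild-type Cd73P. In Cd73P labelled Ezh2-cKO, 9 were at 0.5 FPKM or more, against 4.26% and 20.9% of the same backgrounds. They were Pisd-ps1, Cdkn2b, 2610305D13Rik, 2010001M06Rik, A2m, St3gal6, Pax8, Defb11 and Deptor. The rule capped this level for the members but not for the backgrounds, so these shares are not alike. The cap also bears on the wild-type count: without it, 10 of 92 genes were at 0.5 FPKM or more in wild-type Cd73P.

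Within Cd73P, 2 of the 86 genes were at least 1.5-fold higher in the library labelled Ezh2-cKO, Cdkn2b and Defb11, and 2 were at least 1.5-fold lower, Amd1 and 2010001M06Rik. Over all genes tested, 2.27% were higher and 2.38% were lower. Among genes below 0.5 FPKM in wild-type Cd73N the shares were 0.925% and 0.211%, and among the 791 other genes at 0.25 to 0.5 FPKM they were 3.41% and 1.01%, so the members' share of 2.33% in each direction lay within the span of these backgrounds. This rests on the pseudocount of 1, which damps differences at such low levels. With a pseudocount of 0.1, 35 of the 86 genes were higher and 5 were lower, against 6.6% and 7.91% of all genes tested and 6.41% and 3.63% of genes below 0.5 FPKM in wild-type Cd73N. The share among the 791 other genes at 0.25 to 0.5 FPKM was not taken at this pseudocount, so a close background is missing for the 35. With the pseudocount of 1, the median log2 difference was 0.08, compared with 0 over all genes tested. On FPKM without a pseudocount, 64 of 86 (74.4%) were higher by any amount, compared with 36% of all genes and 28.1% of genes below 0.5 FPKM in wild-type Cd73N. Many of the latter are listed at 0 throughout, so the band of 0.25 to 0.5 FPKM is the closer background, and 49.3% of its other genes were higher. Of the 86 genes, 60 fell in that band, and 43 of the 60 (71.7%) were higher.

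Cd73P bounds of the genotypes did not overlap for 27 of the 86 genes. Of these, 24 (27.9%) were higher in the library labelled Ezh2-cKO, against 10.7% of all genes tested, 4.3% of genes below 0.5 FPKM in wild-type Cd73N and 11.4% of the other genes in the band of 0.25 to 0.5 FPKM. Within the band, 17 of 60 members (28.3%) were of this kind. The 24 were Cdkn2b, Pax8, Lin28b, Olig3, Pou3f3, Arpp21, 2610305D13Rik, C1ql4, Defb11, A2m, Notum, Npsr1, Boc, Pmaip1, AI464131, Aldh1a2, Dpyd, Dio3, Fbn2, Fmod, Opcml, Ajap1, Rasef and Scn7a. The 3 that were lower were Amd1, Cyp2j13 and H2-Q7, against 16.3%, 2.41% and 7.59% of the same backgrounds, in the same order. By role, 6 of the 11 genes grouped under transcription and RNA were among the 24, but none of the 8 genes without an assigned role.

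**Figure D3:**
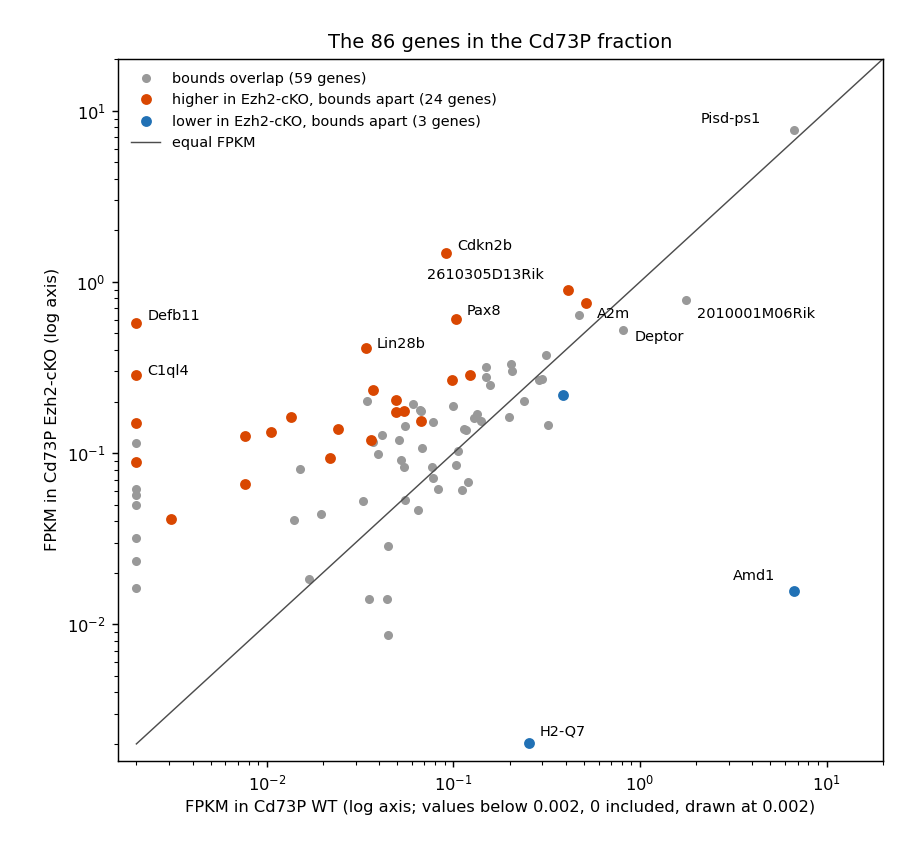
FPKM of the 86 genes in Cd73P WT (horizontal) and Cd73P Ezh2-cKO (vertical), both on log axes with values below 0.002 drawn at 0.002; colours mark deposited bounds that do not overlap. Most points lie below 0.5 FPKM on both axes, 64 of 86 lie above the line of equal FPKM, and Amd1 is far below it at 6.70 and 0.0157 FPKM.

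The levels reached in Cd73P were small. Among the libraries labelled Ezh2-cKO, the Cd73P level of a gene was a median of 5.76% of its Cd73N level, with an interquartile range of 3.19% to 10.7%, and it was under 10% for 60 of the 86 genes. The same quantity was a median of 3.50% over the 12 Müller glia markers, which are not rod genes. It was 3.34% for Npsr1, 4.16% for Pou3f3, 5.96% for Pax8, 11.2% for Olig3, 18.5% for Lin28b and 23.3% for Cdkn2b. RNA of Cd73N cells in the Cd73P sort would contribute to each of these levels, and its part was not tested.

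Some loci held neighbours at higher levels as well. Within 20000 bases of a member there were 91 other genes tested, beside 48 of the 86 genes. Of the 91, 14 (15.4%) were at least 1.5-fold higher in Cd73N labelled Ezh2-cKO, against 7.19% of all genes tested. Lower by 1.5-fold were 0, against 1.70%. These shares are not matched for level. Below 0.5 FPKM in wild-type Cd73N were 24 of the 91, 3 of them higher, but 8538 of all 21655 genes tested. Gstt1, Abca5, Abca9 and Cyp4f13, all among the 14, belong to the same family as the member beside them. Pou3f3 lay 2.32 kb from 2610017I09Rik (chromosome 1, 42705045 to 42751670, the RNA gene Pantr1 in RefSeq), which also qualified at 0.0628, 5.78, 0 and 0.0613 FPKM, and beside 2900092D14Rik, at 0.00866 and 0.864 FPKM in Cd73N. Cdkn2b lay 11.7 kb from Cdkn2a, the gene of p16Ink4a and Arf, which missed the wild-type limit at 1.10 FPKM in wild-type Cd73N and was at 20.7 FPKM in Cd73N labelled Ezh2-cKO, listed at 0 in wild-type Cd73P and at 1.87 FPKM in Cd73P labelled Ezh2-cKO. Both genes of the Ink4 locus were thus higher in the library labelled Ezh2-cKO in both fractions.

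Dio3 lay 1.16 kb from Dio3os, its antisense neighbour, at 0.722 and 6.10 FPKM in Cd73N and 0.0202 and 0.372 FPKM in Cd73P. Lin28b lay 6.91 kb from Bves, an adhesion gene at 3.64 and 17.2 FPKM in Cd73N and 0.0931 and 0.809 FPKM in Cd73P. Gstt3 lay 2.40 kb from Gstt1, a gene of the same family at 6.42 and 36.3 FPKM in Cd73N. C1ql4 lay 11.8 kb from Dnajc22, at 0.0686 and 0.903 FPKM. In contrast, Icam4 and Icam5 next to Icam1 were at 0.384 and 0.578 FPKM in Cd73N labelled Ezh2-cKO, neither of them 1.5-fold higher. The protocol names no step that marks the strand, so reads of overlapping transcripts cannot be assigned to a strand.

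**Figure D4:**
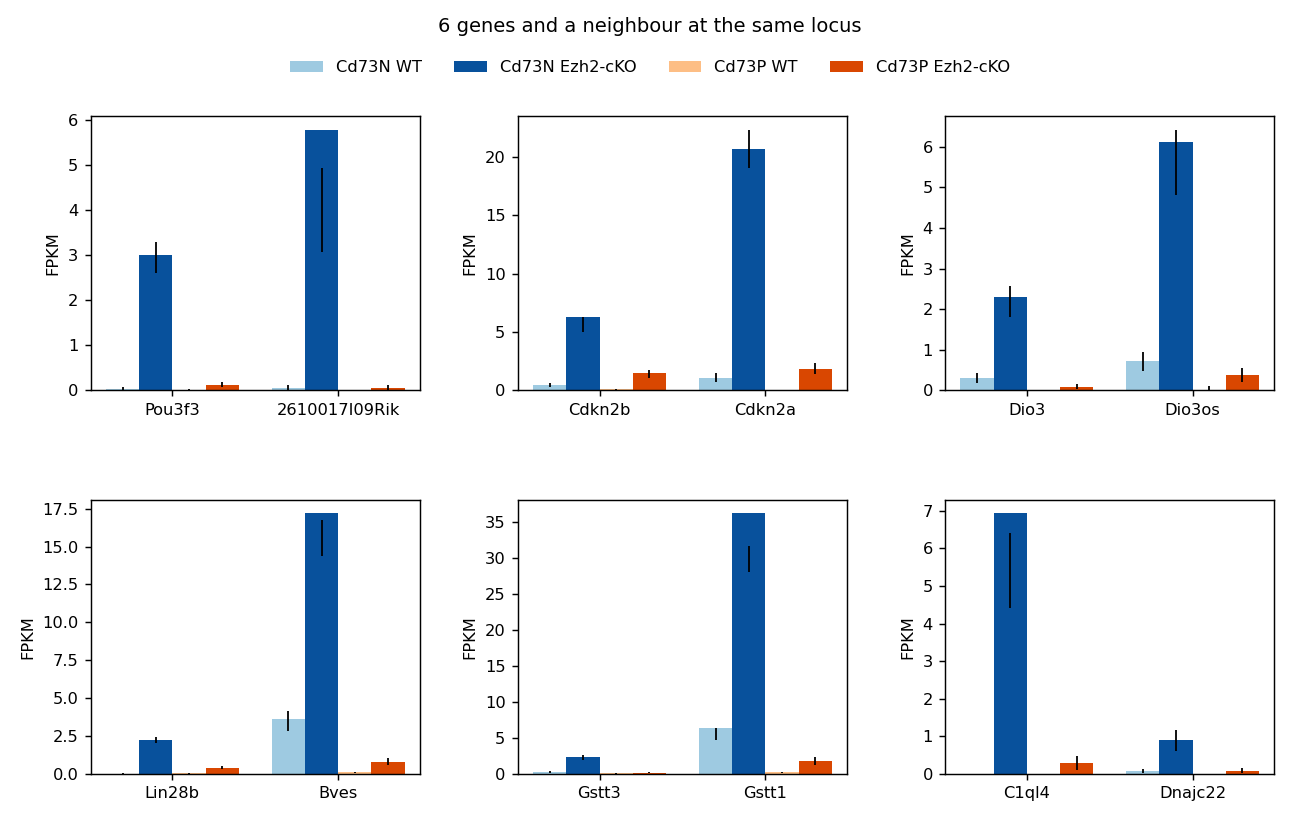
FPKM (bars from 0) with deposited bounds (lines) of 6 of the genes and a neighbour at the same locus in the 4 libraries. In each panel the Cd73N Ezh2-cKO bar is the tallest for both genes, and the bounds of 2610017I09Rik, C1ql4, Bves and Gstt1 lie below their bar in that library.

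At 10 of the 86 genes another annotated gene overlapped the locus, and there the level depends on how reads were divided. Amd1, an enzyme of polyamine synthesis, was at 0.0111 FPKM in wild-type Cd73N, 2.51 in Cd73N labelled Ezh2-cKO, 6.70 in wild-type Cd73P and 0.0157 in Cd73P labelled Ezh2-cKO, which makes it the only member with its highest level outside Cd73N labelled Ezh2-cKO. Its near-identical copy Amd2, listed over the same locus, was at 23.1, 25.1, 30.2 and 47.0 FPKM. The sum of both was 23.1, 27.6, 36.9 and 47.0 FPKM, a log2 difference of 0.25 in Cd73N and 0.34 in Cd73P, so the pattern of Amd1 was not present in the sum.

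Pisd-ps1, a transcribed pseudogene with the highest level of the 86 genes, was at 0.029, 12.1, 6.72 and 7.69 FPKM, while the overlapping Pisd-ps3 was at 16.1, 12.1, 6.74 and 2.99 FPKM. Their sum was 16.2, 24.2, 13.5 and 10.7 FPKM, with log2 differences of 0.55 and -0.31. H2-Q7 was at 0.197, 1.63, 0.254 and 0.00203 FPKM, and with H2-Q6 and H2-Q9 the sum was 3.32, 4.24, 0.920 and 1.11 FPKM. The sum differed by less than 1.5-fold between genotypes in both fractions for each of these 3 families, and the assignment of the 3 members to the 86 genes is therefore uncertain. 2010001M06Rik, named Abhd11os in RefSeq and overlapping Abhd11, was at 0.364, 3.10, 1.76 and 0.779 FPKM, and Abhd11 was at 11.1, 12.8, 15.8 and 13.6 FPKM.

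The promoters were examined because CpG content was not used to choose the genes and CpG-rich promoters are typical Polycomb targets. A window was called CpG-rich if its GC share was at least 0.5 and its observed over expected CpG at least 0.6. The windows were 300 bases long, from 250 bases before to 50 after the start of the gene. On build mm9, 32 of 85 members with a window (37.6%, exact binomial 95% interval 27.4% to 48.8%, the spread of a share of 85 genes only) were CpG-rich. The share was 48.6% over all genes tested, 14.2% over the other genes below 0.5 FPKM in wild-type Cd73N and 72.7% over genes at 1.5 FPKM or more there. It was 36% over the other genes at 0.25 to 0.5 FPKM in wild-type Cd73N, where 23 of 60 members (38.3%) were CpG-rich, so at a like wild-type level the members were near the background. In the RefSeq windows of build GRCm38.p6, found for 69 of 86 members, the share was 37.7%, but these windows covered only 78.1% of all genes tested, and a comparison with all genes is void for them.

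**Figure D5:**
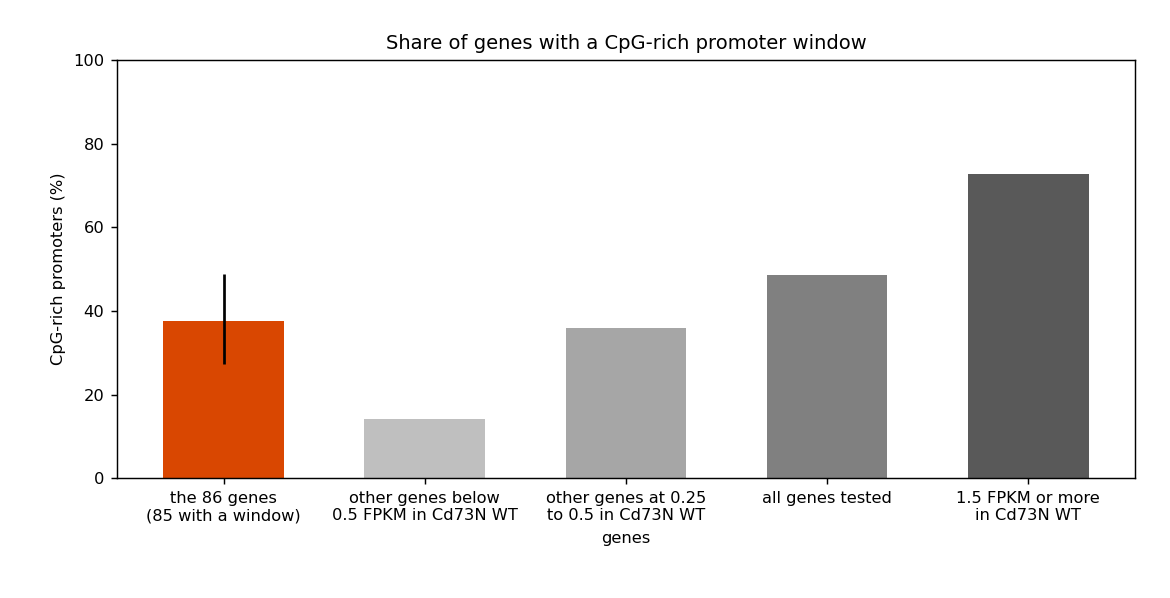
Share of genes with a CpG-rich window of 300 bases on mm9 (bars from 0, in percent), with the exact binomial 95% interval for the 86 genes. The 86 genes are at 37.6%, close to the 36% of other genes at 0.25 to 0.5 FPKM in Cd73N WT and above the 14.2% of all other genes below 0.5 FPKM there.

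Promoters were compared among 15 genes with a RefSeq window that were among the highest in Cd73N labelled Ezh2-cKO or on a gene list, and they ranged from dense in CpG to free of it. The 250 bases before the RefSeq start are given for the 3 of these 15 with the most CpG and the 2 with the fewest, 5′ to 3′ on the strand of the gene and with each CpG in capitals, to show that genes with the same expression pattern had unlike promoters. Each sequence from RefSeq, build GRCm38.p6, was also found once in mm9, directly before the start listed for the gene. Aldh1a2 lies on the plus strand at chr9:71215539-71215788 (mm9 chr9:71063346-71063595) and held 40 CpG in 250 bases. Bmper lies on the plus strand at chr9:23222826-23223075 (mm9 chr9:23027270-23027519) and held 24, and C1ql4 on the minus strand at chr15:99087729-99087978 (mm9 chr15:98918160-98918409) held 26. Olig3 on the plus strand at chr10:19356289-19356538 (mm9 chr10:19076095-19076344) held 4, and Defb11 on the minus strand at chr8:21906433-21906682 (mm9 chr8:23016905-23017154) held 0.
Aldh1a2: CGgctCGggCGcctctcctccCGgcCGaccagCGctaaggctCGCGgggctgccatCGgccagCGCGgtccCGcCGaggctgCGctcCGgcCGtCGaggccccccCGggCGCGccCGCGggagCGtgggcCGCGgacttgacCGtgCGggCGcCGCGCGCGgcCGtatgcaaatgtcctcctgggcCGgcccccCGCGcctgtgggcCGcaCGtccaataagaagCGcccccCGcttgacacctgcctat
Bmper: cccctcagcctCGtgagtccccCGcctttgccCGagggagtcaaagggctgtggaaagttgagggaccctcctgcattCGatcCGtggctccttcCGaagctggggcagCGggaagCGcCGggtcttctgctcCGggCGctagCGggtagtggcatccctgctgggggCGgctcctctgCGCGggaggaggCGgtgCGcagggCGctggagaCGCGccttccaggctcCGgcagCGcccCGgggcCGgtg
C1ql4: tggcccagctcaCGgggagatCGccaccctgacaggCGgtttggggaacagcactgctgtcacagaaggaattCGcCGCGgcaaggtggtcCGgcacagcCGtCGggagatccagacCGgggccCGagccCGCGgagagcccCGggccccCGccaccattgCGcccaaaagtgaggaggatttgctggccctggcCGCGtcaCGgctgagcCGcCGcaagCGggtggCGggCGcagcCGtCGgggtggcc
Olig3: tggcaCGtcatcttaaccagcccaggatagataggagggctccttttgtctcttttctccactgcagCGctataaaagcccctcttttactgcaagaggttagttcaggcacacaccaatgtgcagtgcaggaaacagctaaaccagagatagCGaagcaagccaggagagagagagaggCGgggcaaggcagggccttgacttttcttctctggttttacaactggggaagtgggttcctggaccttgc
Defb11: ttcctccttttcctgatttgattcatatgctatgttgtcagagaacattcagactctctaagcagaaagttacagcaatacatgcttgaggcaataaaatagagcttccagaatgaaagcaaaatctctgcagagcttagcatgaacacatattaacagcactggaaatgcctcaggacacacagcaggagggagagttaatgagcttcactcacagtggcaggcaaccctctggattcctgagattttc

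Aldh1a2 and C1ql4, both listed at 0 in wild-type Cd73N, were at the CpG-dense end, with observed over expected CpG of 1.1 and 0.76 over the window of 300 bases. Bmper was at 0.79. Olig3 and Defb11 were at 0.25 and 0, and their levels in wild-type Cd73N were 0.0142 and 0.313 FPKM. Cdkn2b and Pou3f3 were also CpG-rich, with 18 CpG each in the window.

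Members were also counted on gene lists that fit the tissue and the loss of Polycomb, beside the 1.01% of all genes below 0.5 FPKM in wild-type Cd73N that are members. Across the transcription factor lists together, 358 genes were measured and 227 were below 0.5 FPKM in wild-type Cd73N. The 86 genes included 3 of these 227 factors (1.32%), Pax8, Pou3f3 and Olig3, which is near that background. Hif3a and Klf4, placed above under transcription, were on none of these lists, so the share holds for the listed factors only. Of 358 measured factors, 50 were at least 1.5-fold higher in Cd73N labelled Ezh2-cKO and 19 were lower, most of the higher ones from a wild-type level above 0.5 FPKM. Near relatives of the members differed: Olig1 and Olig2 were at 0.220 and 0.186 FPKM, Pax2 and Pax5 at 0.326 and 0.0539 FPKM and Pou3f1 at 0.0193 FPKM in Cd73N labelled Ezh2-cKO, whereas Pou3f2 was at 1.20 FPKM in wild-type Cd73N and 2.51 FPKM in Cd73N labelled Ezh2-cKO.

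Signal and effector lists held 0 or 1 member each, numbers too small to set against the background of 1.01%. Of 66 listed Wnt, BMP, TGF-beta, FGF and hedgehog ligands and antagonists below 0.5 FPKM in wild-type Cd73N, 1 reached 1.5 FPKM, Inhba. Bmper and Notum, described above as modulators of such signals, were not on this list, so the count holds for the listed genes only. Of 94 chemokines, cytokines and receptors below the limit, 1 reached 1.5 FPKM, Clcf1. Of 33 complement, acute-phase and reactive glia genes below it, 1 did, A2m. Cdkn2b was 1 of 2 genes below the limit among 8 CDK inhibitors and Ink4 genes. None of the 44 keratins, 36 germline genes, 30 sarcomere genes, 22 collagens, 22 forkhead factors or 19 T-box and GATA factors below 0.5 FPKM in wild-type Cd73N reached 1.5 FPKM, and 0 of 13 PRC2 subunits and cofactors were 1.5-fold higher or lower in Cd73N.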

How the data were processed

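Per the labels and the study's methods, the authors aligned 36-base single-end reads of poly(A)-selected RNA to mm9 with TopHat 2.0.8b, allowing up to 50 hits per read, and the deposited FPKM values were computed by them with Cufflinks 2.1.1 (base calls by bcl2fastq 1.8.4). Multi-mapped reads can therefore move between near-identical genes. Total read counts were not used here, so absolute depth is unknown. Depth relative to wild-type Cd73N was inferred from the bounds. It was 1.16 in Cd73N labelled Ezh2-cKO, 1 in wild-type Cd73P and 1.04 in Cd73P labelled Ezh2-cKO.

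Rows that shared a symbol were summed, and genes of other status than OK were left out. FPKM was not rescaled. Ratios are log2(FPKM + 1), and a gene was counted at 1.5-fold, without p-values because there was 1 library per group (4 libraries in all). The members and gene lists were chosen with earlier results of these data known, and the roles, relatives and the band of 0.25 to 0.5 FPKM after the values were seen. Named genes were Ezh2 and Nt5e, the 15 members highest in Cd73N labelled Ezh2-cKO, members on a list, the 6 highest in each Cd73P library and genes at the limits. Some genes that met this rule are left out here. Others are named as examples of a role, chosen after their values were seen. Marker lists were hand-written. Loci are 1-based on mm9, and promoters are from RefSeq, build GRCm38.p6, matched exactly to the mm9 genome. The rule was tested on simulated data. Analyses used Python 3.11.15, pandas 2.3.3, scipy 1.17.1 and matplotlib 3.10.9.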

Additional observations from a re-analysis of the deposited data

Results flagged for a closer look

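Amd1 and 2010001M06Rik were higher in the library labelled Ezh2-cKO in Cd73N and at least 1.5-fold lower in Cd73P. The log2 difference of Amd1 was 1.80 in Cd73N and -2.92 in Cd73P. That of 2010001M06Rik was 1.59 in Cd73N and -0.63 in Cd73P. With 1 library per group the difference between the fractions was not tested, and both genes share their locus with another annotated gene, Amd2 and Abhd11.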

How the results depend on the processing

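The number of genes was 26 with a wild-type limit of 0.25 FPKM, 283 with a limit of 1, 19 with a minimum of 3 FPKM in Cd73N labelled Ezh2-cKO and 181 with a minimum of 1. The 19 and the 26 were all among the 86, and all 86 were among the 181 and the 283. Scaling, status, chromosome and overlap choices kept the number between 76 and 109. In the order of those limits (0.25, 1, 3, 1), the genes at least 1.5-fold higher in Cd73P numbered 0, 4, 2 and 3, those lower 1, 5, 1 and 2, and those at 0.5 FPKM or more in wild-type Cd73P 2, 33, 2 and 8. Over all genes, 2.27% were higher and 2.38% lower in Cd73P, whichever of these limits was used. The median log2 difference in Cd73P was 0.051 with the wild-type limit of 1, and 0.153 and 0.0442 with the minimum of 3 and of 1. A pseudocount of 0.1 gave 35 higher, 5 lower and a median of 0.447, against 6.60% higher and 7.91% lower over all genes. A pseudocount of 5 gave 0, 1 and 0.0171, against 0.845% higher and 0.61% lower over all genes. A 2-fold threshold gave 1 higher and 1 lower. The number higher in Cd73P was 5 without the Cd73P limit, 4 after scaling by the FPKM sum and 4 with every status, and the number at 0.5 FPKM in wild-type Cd73P was 10, 8 and 8, and 3 with a threshold of 1 FPKM. No share over all genes was taken for the 2-fold threshold, after scaling or with every status. Without members at overlapping loci, chosen after seeing the data, 0 were lower in Cd73P and 2 were at 0.5 FPKM or more in wild-type Cd73P. With a CpG threshold of 0.75, 21.7% of members with a RefSeq window had a CpG-rich promoter, and no background share was taken for it. Beyond the change in which genes are counted, the cause was not tested. Of 82 values under alternatives, 48 stayed within the limits set for a like value and 34 moved. Unknown depth and 1 library per group limit all values. No paired analysis was possible because each group has 1 library and the labels carry no replicate numbers.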

Other observations

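Genes outside the limits by chromosome, fraction or status are given as values. Klk1b22 was at 0.312 and 2.46 FPKM in Cd73N and at 1.82 and 7.45 FPKM in Cd73P, wild type first, and 1700010K23Rik at 0.383 and 1.96 FPKM in Cd73N and at 1.59 and 5.06 FPKM in Cd73P. On chromosome X, Eda2r, a receptor of ectodysplasin, was at 0.0777 and 2.88 FPKM in Cd73N, and Gria3, a glutamate receptor subunit, at 0.170 and 2.62 FPKM. Klc1, Prrc2a, Reep2 and Stau1 would have qualified only through rows of a status other than OK that were listed at 0 in wild-type Cd73N.

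With the genotypes exchanged, the same limits gave 10 genes: BC030500, Ccl21c, Cntnap5a, Emp1, Fezf1, Fmo2, Gm12238, Grp, Kcng1 and Kirrel2. Fezf1 was at 1.89 FPKM in wild-type Cd73N and at 0.0686 FPKM in Cd73N labelled Ezh2-cKO, and Grp, which encodes gastrin-releasing peptide, was at 1.93 and 0.191 FPKM. These were also named after their values were seen.

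Chromosomes 1, 4, 9 and 10 held 10 of the 86 genes (11.6%) each, against 6.27%, 6.31%, 6.49% and 4.69% of the genes below 0.5 FPKM in wild-type Cd73N on numbered chromosomes, and no test was made. Apart from Pou3f3 and 2610017I09Rik, one pair of members lay within 100 kb of each other, Aldh1a2 and Aqp9 at 52.5 kb.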
